A study of Mus musculus with 6 samples.

Results

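The 9 genes described here encode transcription factors known for effector function or tissue residency in CD8+ T cells: *Prdm1*, *Zfp683*, *Runx3*, *Runx1*, *Tbx21*, *Eomes*, *Id2*, *Zeb2* and *Bhlhe40*. They were chosen by name with earlier results of these data known, so that counts over the 9 are a description. All 9 were found among the 57126 genes counted and passed the filter on low counts. RNA was sequenced from mouse OT-I CD8+ T cells, which carry a transgenic receptor for an ovalbumin peptide on major histocompatibility complex class I, after expansion to day 6 with nano-aAPCs, nanoparticles that carry the peptide complex and anti-CD28. IL-2 alone was the cytokine for the 3 TEff samples, and for the 3 TRM-like samples IL-15 and TGF-β were added to it, so that the parts of IL-15 and TGF-β cannot be told apart. Nano-aAPC stimulation and IL-2 were common to both groups. The ages of the mice were not given in the sources used here. The labels do not say whether the replicates came from separate mice or cultures, and p-values therefore measure the spread between these samples, which may be technical. The cells were made in culture, without a tissue.

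These factors bind DNA in separate ways and act on overlapping sets of genes. Blimp-1 (encoded by *Prdm1*) and its homolog Hobit (*Zfp683*) are zinc finger repressors that, in mouse tissue-resident memory cells, shut down genes for tissue egress. Runx3 and Runx1 belong to a family with a shared DNA-binding domain and the partner CBFβ, and Runx3 silences CD4 lineage genes in CD8+ T cells. T-bet (*Tbx21*) and Eomesodermin (*Eomes*) are T-box factors that drive cytotoxic genes, and TGF-β is known to lower both in T cells. Id2 blocks E proteins, Zeb2 is a zinc finger repressor that acts with T-bet in terminal effector cells, and Bhlhe40 is a basic helix-loop-helix factor tied to metabolism in resident cells.

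The *Runx* genes have a sequence feature in common, and its relation to their RNA levels was not tested. Each is transcribed from a distal and a proximal start. In RefSeq promoter windows of 250 bases before to 50 bases after a start (GRCm38.p6), the distal windows of *Runx3* and *Runx1* each held 2 copies of AACCACA, the letters that Runx proteins bind, with 1 base between them. *Runx2*, the remaining family member, held the same pair 23 to 37 bases after a start. This pair stood in 5 of 32851 windows (0.015%) on either strand, and it was searched after the sequences had been read. The other 2 windows belonged to *Gm16225* and *Olfr24*. The sequences below are shown for the pair, in capitals, on the strand of each gene, with positions of the same bases in GRCm39.

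Runx3 (chr4:134847813-134847842, plus strand): ggtccctcAACCACAgAACCACAaggccag

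Runx1 (chr16:92622914-92622943, minus strand): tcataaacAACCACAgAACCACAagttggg

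Runx2 (chr17:45125471-45125500, minus strand): tcacaaacAACCACAgAACCACAagtgcgg

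In *Runx3* the pair lay 135 to 121 bases before the start, upstream of the annotated gene, and in *Runx1* 28 to 42 bases after it, inside the annotated gene. The 250 bases before the distal start of *Runx3* follow, with the pair in capitals, to show where it lies in the promoter.

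Runx3 distal (chr4:134847706-134847955, plus strand): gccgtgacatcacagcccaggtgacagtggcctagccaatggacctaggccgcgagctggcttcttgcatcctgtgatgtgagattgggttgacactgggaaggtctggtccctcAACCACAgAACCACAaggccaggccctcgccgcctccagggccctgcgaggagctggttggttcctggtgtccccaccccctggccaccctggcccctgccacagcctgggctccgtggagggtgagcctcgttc

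RefSeq windows were at hand for 7 of the 9 genes, 12 windows in all, and not for *Zfp683* and *Bhlhe40*. The core letters ACCACA were in 16.761% of all windows and AACCACA in 5.269%, and among the windows of the 9 genes both were in the distal windows of *Runx3* and *Runx1*. The E-box CACCTG, which Zeb proteins bind, was in 20.212% of all windows and in the windows of *Prdm1* and *Tbx21* and the distal windows of *Runx3* and *Runx1*. The Smad letters GTCTAGAC were in 0.213% of all windows and in the proximal window of *Runx3*, and the Smad letters CAGACA were in 21.043% and in that window and the window of *Prdm1*. The T-box letters GGTGTGA, in 3.979% of all windows, and the Blimp-1 letters GTGAAAG, in 4.237%, were in none of the 12. Both strands were searched, ACCACA lies inside AACCACA, and a match describes letters, not binding.

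Between 18319013 and 23622621 reads per library were counted on genes. TRM-like replicate 3 stood apart from TRM-like replicates 1 and 2 in several of the genes below, and TRM-like replicates 1 and 2 had counts on 35130 and 35559 genes against 24229 to 24908 in the other 4 libraries. The CD8 T cell markers, 7 genes, summed to 2282 to 2444 CPM (counts scaled to a common normalized library size) in TEff and 2729 to 3908 in TRM-like, with none of them at 0. *Cd4*, which defines the other T cell lineage, had 0 to 2 counts in each library. The 4 NK cell markers summed to 24.7 to 44.0 CPM in TEff and 4.75 to 22.6 in TRM-like with *Ncr1*, which defines these cells, at 0 to 6 counts, the 7 myeloid markers to 4.85 to 10.3 and 0.784 to 5.84, and the 6 B cell markers to 6.26 to 6.88 and 7.29 to 11.2. The 5 stromal and endothelial markers summed to 46.3 to 63.2 and 19.5 to 41.5 CPM, nearly all from *Pecam1*, which T cells also express. The 4 erythroid markers summed to 0.608 to 1.06 and 0.599 to 1.13 CPM, and the 4 CD4 T cell markers to 35.9 to 41.5 and 18.4 to 25.99 CPM, nearly all from *Zbtb7b*. Bulk RNA does not tell fewer cells of a type from less RNA per cell. The part of any of these in the results below was not tested.

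Of the 9 factor genes, 2 fell in the TRM-like cells and 0 rose. A gene was called where its adjusted p was under 0.05 (edgeR, quasi-likelihood test, Benjamini-Hochberg) and its log2 fold change exceeded 0.58 in size. *Runx1* fell 7.48-fold and *Eomes* 4.26-fold. Over all 26154 genes tested, 3.01% were called, 1.48% as lower and 1.52% as higher. At an unadjusted p under 0.05, edgeR gave 5 of the 9 as lower and 1, *Runx3*, as higher. The share of all genes at that looser threshold is not given here. The shares above are therefore no background for such counts, here or in the lists below. With the same thresholds for a call, DESeq2 called 2 as lower and *Runx3* as higher, and limma-voom called 2 as lower and 0 as higher. Over all genes tested, DESeq2 called 4.8% and limma-voom 2.82%. In 5 of the 9, *Prdm1*, *Zfp683*, *Runx1*, *Eomes* and *Zeb2*, every TRM-like library lay below every TEff library, which held for 9.71% of all genes tested, and the groups lay apart in either direction for 20.3%. The median log2 fold change was -0.41 over the 9 genes and 0.02 over all genes tested.

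The 2 calls did not rest on 1 library. *Runx1* and *Eomes* were called in each of the 6 fits that left out 1 sample. Without TRM-like replicate 3, where 14.0% of all genes were called, 4 of the 9 were called, *Runx1*, *Eomes* and *Zeb2* as lower and *Runx3* as higher. With TRM-like replicate 3 alone against the 3 TEff samples, a fit chosen after the data were seen that takes the lone sample to vary like the others, 3.24% of all genes and 3 of the 9 were called, *Runx1*, *Eomes* and *Zeb2*, each as lower.

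**Figure D1:**
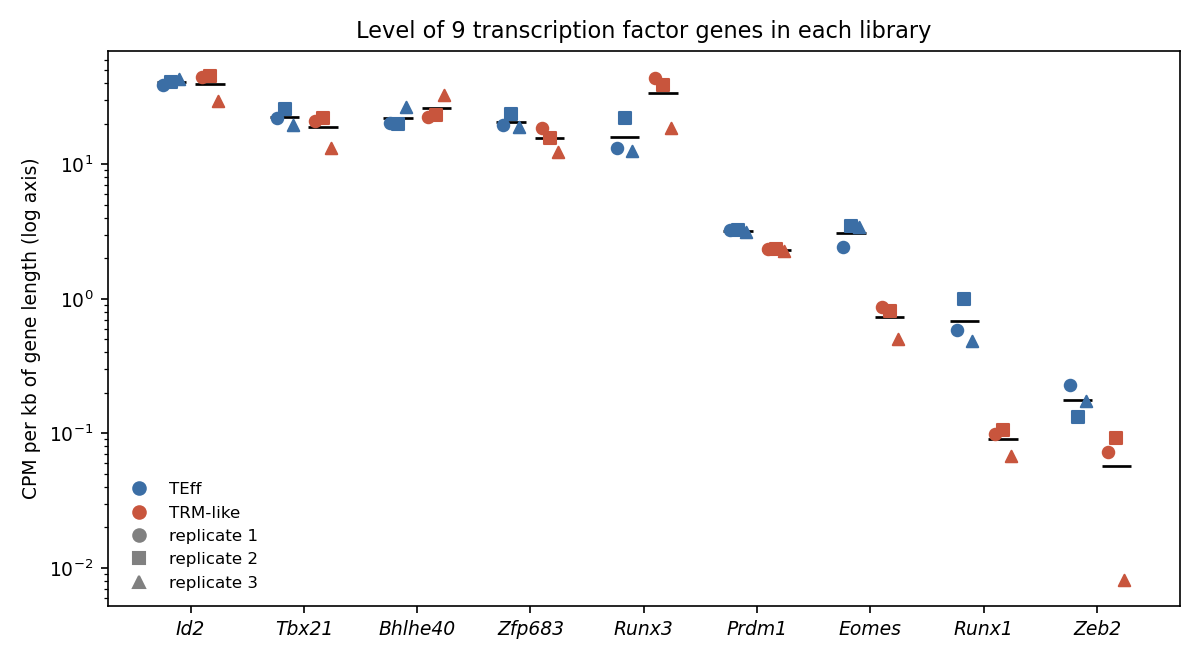
Level of each of the 9 genes in each of the 6 libraries, in CPM per kb of gene length on a log axis. Points are libraries, marked by replicate, black lines are group means, and the TRM-like points of *Runx1* and *Eomes* lie below all their TEff points while those of *Id2*, *Tbx21* and *Bhlhe40* overlap.

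**Figure D2:**
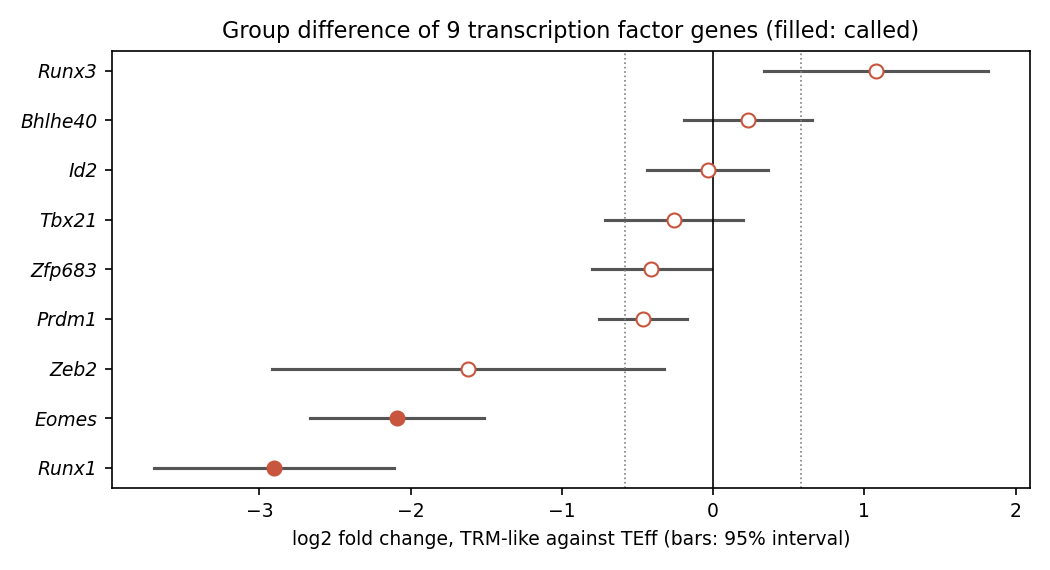
Log2 fold change of each gene in TRM-like against TEff samples with its 95% interval from the edgeR fit, 3 samples per group. Filled points are called, dotted lines mark 0.58 in each direction, and *Runx1* at -2.90 and *Eomes* at -2.09 are the 2 filled points.

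*Runx1* (ENSMUSG00000022952, chromosome 16 of GRCm39, 92398354 to 92623037, minus strand) encodes a factor needed early in T cell development. It had 96, 146 and 65 counts in TEff replicates 1, 2 and 3, and 17, 18 and 11 in TRM-like replicates 1, 2 and 3. The groups were wide apart, and the TRM-like libraries lay close together. In CPM it was at 5.12 ± 2.00 in TEff and 0.678 ± 0.150 in TRM-like (SD, n = 3 per group), a log2 fold change of -2.90 (SE 0.35, edgeR adjusted p = 0.00301).

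*Runx3* (ENSMUSG00000070691, chromosome 4, 134847952 to 134905301, plus strand), the family member that CD8+ T cells use most, was highest in TRM-like replicates 1 and 2. It was at 55.5, 91.8 and 52.3 CPM in TEff replicates 1 to 3, and at 183, 161 and 77.4 CPM in TRM-like replicates 1 to 3. TRM-like replicate 3 lay inside the TEff range, below TEff replicate 2, and the groups overlapped. Its log2 fold change of 1.08 (SE 0.33, 95% interval 0.34 to 1.82) was not called (edgeR adjusted p = 0.150). It was 1.36 and called without TRM-like replicate 3 (edgeR adjusted p = 0.000258), and 0.21 with that replicate alone against TEff (edgeR adjusted p = 0.778). DESeq2 called it, with a log2 fold change of 1.09 (adjusted p = 0.0234).

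The ratio of both genes was also taken, as RNA of *Runx3* over that of *Runx1*. Per kb of length and inside each library, where library scaling cancels, *Runx3* RNA exceeded *Runx1* RNA 22.6-fold, 22.2-fold and 26.0-fold in TEff replicates 1 to 3, and 441-fold, 365-fold and 272-fold in TRM-like replicates 1 to 3. The groups did not overlap. TRM-like replicate 3 had a *Runx3* level like that of TEff and a ratio far above that of any TEff library. The TRM-like ratios, and the TRM-like shares of *Runx1* below, rest on 17, 18 and 11 *Runx1* counts in replicates 1 to 3. The level of silent genes, explained below, would give 3.29, 13.1 and 1.26 counts there. The log2 ratio was 4.56 ± 0.13 in TEff and 8.46 ± 0.35 in TRM-like (SD, n = 3), a difference of 3.91 with exact permutation p = 0.1, two-sided, the smallest that 3 against 3 samples can give (0.167 adjusted over the 5 ratios compared).

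As shares of the summed per-kb RNA of the 3 *Runx* genes, *Runx1* made up 3.75% ± 0.33 in TEff and 0.275% ± 0.063 in TRM-like (SD, n = 3), *Runx2* 8.42% ± 0.76 and 4.37% ± 1.64, and *Runx3* 87.8% ± 0.50 and 95.4% ± 1.70. The sum itself was 14.3 to 24.9 CPM per kb in TEff and 19.8 to 45.4 in TRM-like. *Runx2* alone was at 9.73 to 14.8 CPM in all 6 libraries and was not called (log2 fold change -0.11, edgeR adjusted p = 0.845).

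**Figure D3:**
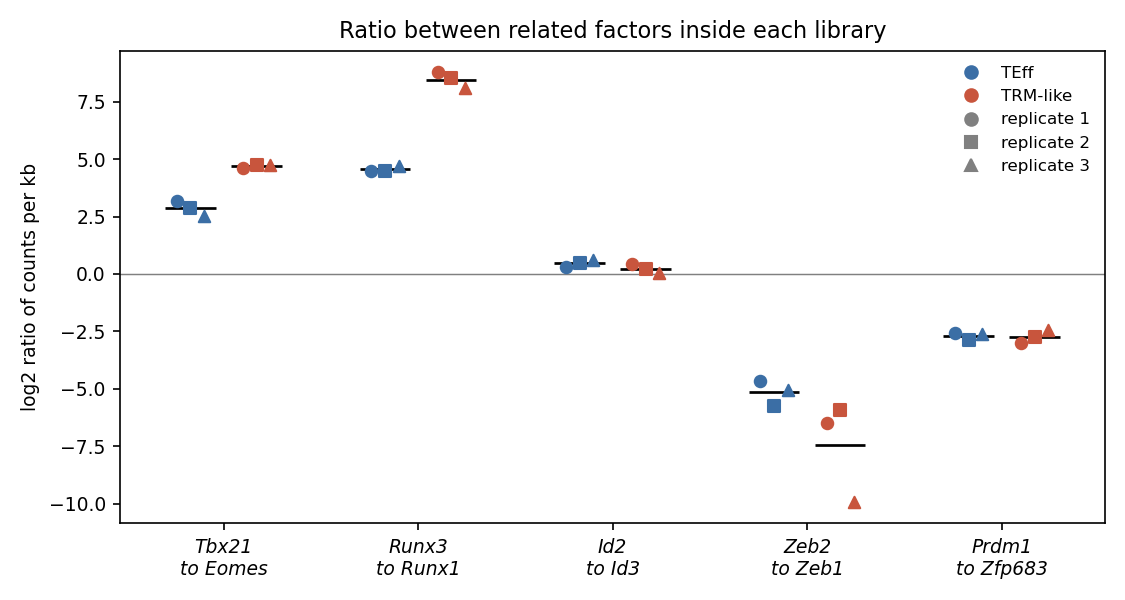
Log2 ratio of counts per kb between pairs of related genes inside each library, points marked by replicate and black lines at group means. *Runx3* to *Runx1*, *Tbx21* to *Eomes* and *Zeb2* to *Zeb1* lie apart between the groups, and *Id2* to *Id3* and *Prdm1* to *Zfp683* do not. For those apart, the TRM-like and TEff means are 8.46 against 4.56, 4.70 against 2.86, and -7.45 against -5.15.

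Genes around the Runx factors were read from lists of partners and lineage genes. These lists and those further below were drawn up with results of these samples known, so their counts are a description. Of the 6 partner and corepressor genes, edgeR and limma-voom called 0, DESeq2 called 1 (*Tle3*, as higher), and 1 had an unadjusted p under 0.05 in edgeR. *Cbfb*, which encodes the DNA-binding partner, was at 143 to 177 CPM in TEff and 158 to 215 in TRM-like. *Tle3*, a Groucho-type corepressor, was at 30.3, 51.5 and 32.2 CPM in TEff and 81.2, 82.8 and 54.0 in TRM-like, apart between the groups but not called (log2 fold change 0.94, edgeR adjusted p = 0.0867).

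Of the 5 lineage genes linked to Runx, 2 rose and 1 fell, where 1.52% and 1.48% of all genes tested did. *Cd8a*, a CD8 coreceptor chain, rose by 1.14 on the log2 scale (SE 0.13, edgeR adjusted p = 0.00219), from 421 to 448 CPM in TEff to 927, 972 and 989 in TRM-like, with replicate 3 the highest. *Itgae*, which encodes the CD103 integrin chain and needs Runx3 in CD8+ T cells, rose by 4.57 (SE 0.38, edgeR adjusted p = 0.000447), from 20.1 to 29.97 CPM in TEff to 707, 742 and 284 in TRM-like, with replicate 3 lower than the other two but far above TEff. *Zbtb7b*, which encodes ThPOK, the factor of the CD4 lineage that Runx complexes silence, fell by 0.82 (SE 0.17, edgeR adjusted p = 0.0335), from 35.0 to 40.2 CPM in TEff to 16.9 to 25.1 in TRM-like. That call was lost in 4 of the 6 fits that left out 1 sample (without any of the 3 TEff samples or without TRM-like replicate 1, adjusted p up to 0.179 by edgeR). *Cd8b1*, the other coreceptor chain, was at 256 to 275 CPM in TEff and 348 to 397 in TRM-like and was not called (edgeR adjusted p = 0.088).

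*Eomes* (ENSMUSG00000032446, chromosome 9, 118307280 to 118315200, plus strand) encodes the T-box factor of memory and NK cells. It had 196, 255 and 227 counts in TEff replicates 1 to 3, and 73, 69 and 40 in TRM-like replicates 1 to 3. The highest TRM-like library, at 3.18 CPM, was below the lowest TEff library, at 8.96 CPM. The mean was 11.5 ± 2.18 CPM in TEff and 2.68 ± 0.729 in TRM-like (SD, n = 3), a log2 fold change of -2.09 (SE 0.25, edgeR adjusted p = 0.00308). With any 1 sample left out it was -2.23 to -1.89. NK cells also express *Eomes*, and their summed markers, given above, were likewise lower in TRM-like, nearly all from *Klrb1c* and *Klre1*. *Klrb1c* had 214, 433 and 214 counts in TEff and 196, 153 and 2 in TRM-like. *Klre1* had 325, 434 and 283 against 314, 328 and 101, and neither was called. The other markers of the list were near 0 and not lower, *Ncr1* at 1, 1 and 0 against 5, 6 and 0, and *Klra8* at 0, 1 and 0 against 4, 2 and 0. The part of NK cells was not tested.

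*Tbx21* (ENSMUSG00000001444, chromosome 11, 96988897 to 97006158, minus strand), the T-box gene of effector cells, was at 54.5, 63.8 and 49.1 CPM in TEff replicates 1 to 3, and at 51.9, 55.1 and 33.1 CPM in TRM-like replicates 1 to 3. The groups overlapped, and TRM-like replicate 3 was the lowest of the 6. Its log2 fold change was -0.26 (SE 0.20, 95% interval -0.71 to 0.20, edgeR adjusted p = 0.625), and it was -0.07 without TRM-like replicate 3, -0.15 without TEff replicate 2 and -0.40 without TRM-like replicate 2. Per kb and inside each library, *Tbx21* RNA was 9.02, 7.34 and 5.80 times *Eomes* RNA in TEff, and 24.2, 27.1 and 26.6 times in TRM-like. The 3 TRM-like ratios sat close together although replicate 3 had lower levels of both genes, and the log2 ratios differed by 1.84 (2.86 ± 0.32 in TEff, 4.70 ± 0.090 in TRM-like, SD, n = 3, exact permutation p = 0.1, two-sided, the smallest possible, and 0.167 adjusted over 5 ratios). *Eomes* made up 12.2% ± 2.36 of the per-kb RNA of the T-box genes *Tbx21*, *Eomes* and *Tbr1* in TEff, and 3.71% ± 0.222 in TRM-like (SD, n = 3).

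Of the 11 effector genes linked to T-bet, Eomesodermin and Zeb2, 3 fell and 1 rose, where 1.48% and 1.52% of all genes tested did. *Prf1*, which encodes perforin, fell by 2.67 (SE 0.22, edgeR adjusted p = 0.000438), from 30.6 to 46.4 CPM in TEff to 4.89 to 7.72 in TRM-like. *Gzmb*, the gene of granzyme B, fell by 1.91 (SE 0.19, edgeR adjusted p = 0.0013), and its TRM-like libraries were nearly level, at 519, 517 and 513 CPM. *Cxcr3*, a chemokine receptor gene, fell by 1.21 (SE 0.17, edgeR adjusted p = 0.00543), from 123 to 146 CPM to 45.5 to 66.8.

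*Cx3cr1*, a chemokine receptor gene of terminal effector cells, was the gene of this list that rose, by 3.79 (SE 0.72, edgeR adjusted p = 0.0254). TEff libraries held 0.503 to 0.663 CPM of it, and TRM-like replicates 1, 2 and 3 held 11.4, 11.0 and 1.43 CPM. All 5 fits that left out a sample other than TRM-like replicate 3 lost this call (edgeR adjusted p up to 0.156), and limma-voom did not call it. The 7 genes not called were *Ifng*, *Il2rb*, *Klrg1*, *S1pr5*, *Gzma*, *Fasl* and *Il12rb2*. *Klrg1* and *S1pr5*, 2 genes of terminal effector cells, had 0 to 5 and 0 to 3 counts per library. *Il2rb*, which encodes the IL-2 and IL-15 receptor chain, was at 1120 to 1218 CPM in TEff and 888 to 1304 in TRM-like.

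**Figure D4:**
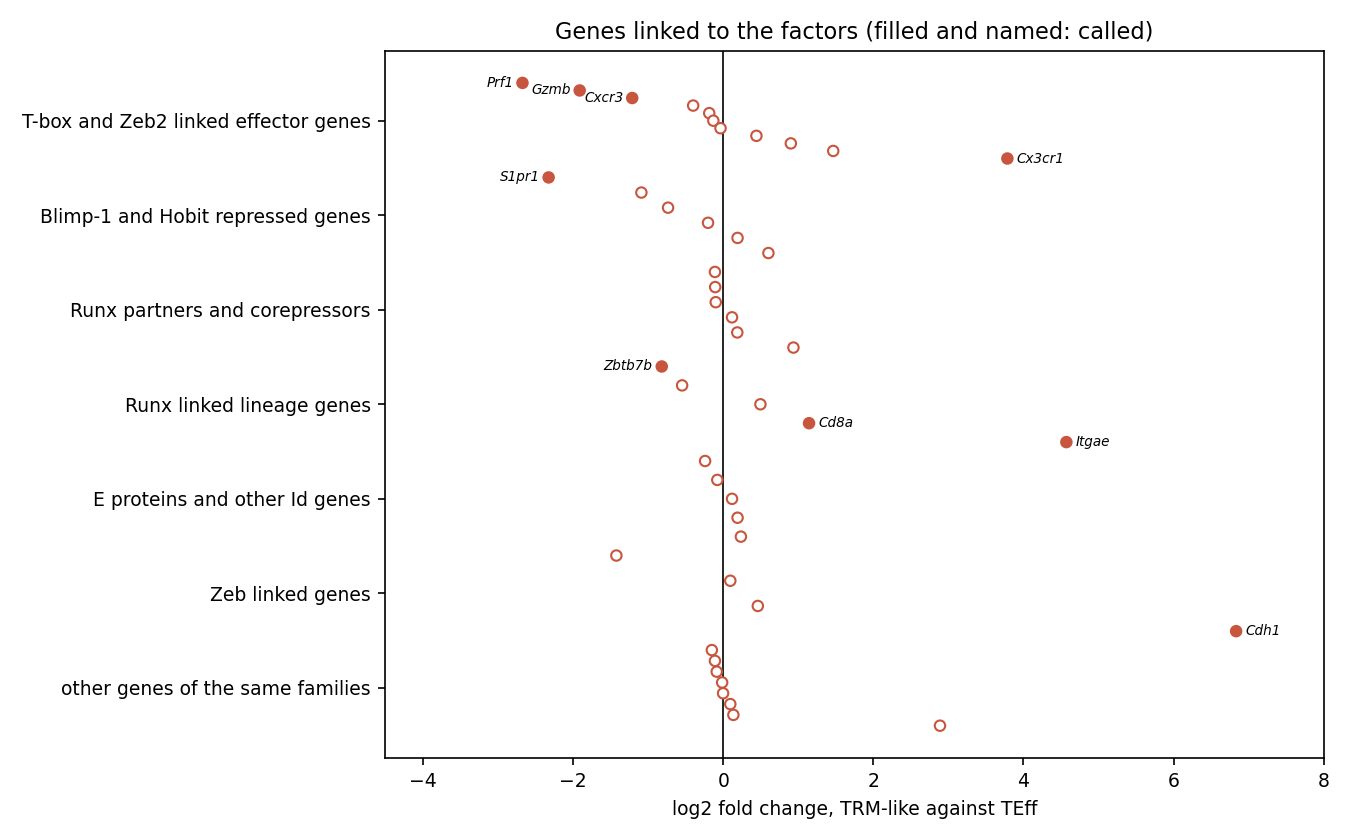
Log2 fold change, TRM-like against TEff, of the genes in the 7 lists around the 9 factors, 1 point per tested gene in each list that holds it. Filled and named points are the 9 called genes, 4 to the right and 5 to the left of 0, and the lists of Runx partners, of E proteins with other Id genes and of other family members have none.

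*Zeb2* (ENSMUSG00000026872, chromosome 2, 44873644 to 45007464, minus strand) had the fewest reads per kb of the 9 genes in all 6 libraries. It had 57, 30 and 36 counts in TEff replicates 1 to 3, and 19, 24 and 2 in TRM-like replicates 1 to 3. Every TRM-like count was below every TEff count, and TRM-like replicate 3 was far below the others. The mean was 2.04 ± 0.545 CPM in TEff and 0.656 ± 0.501 in TRM-like (SD, n = 3). The log2 fold change of -1.62 (SE 0.57, 95% interval -2.92 to -0.32) was not called (edgeR adjusted p = 0.223). It was called without TRM-like replicate 3 (-1.13, edgeR adjusted p = 0.0262) and with replicate 3 alone against TEff (-4.38, edgeR adjusted p = 0.0162).

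Genes that T cells do not use give a level to set beside these low counts. Over 11 such genes (liver, eye, muscle and other tissues), counts per kb were 0.271, 0.170 and 0.0339 in TEff replicates 1 to 3, and 0.441, 1.76 and 0.170 in TRM-like replicates 1 to 3. In all, the 11 genes held 8, 5 and 1 counts in TEff replicates 1 to 3. In TRM-like replicates 1 to 3 they held 13, 52 and 5, so the rates are rough. A 12th listed gene, *Pomc*, had 10 to 27 counts in every library and was left out for that reason. With *Pomc* kept, the rates were 0.620, 0.751 and 0.359 in TEff and 1.11, 2.58 and 0.686 in TRM-like, higher in every library. At the rates of the 11 genes, a gene as long as *Zeb2* would have 5.05, 20.2 and 1.94 counts in TRM-like replicates 1 to 3, against the 19, 24 and 2 seen. *Runx1* would have 3.29, 13.1 and 1.26, against 17, 18 and 11. *Eomes* would have 1.63, 6.51 and 0.626, against 73, 69 and 40. By the rates of the 11 genes, *Zeb2* was thus near the level of silent genes in TRM-like replicates 2 and 3, and *Runx1* in replicate 2. The higher rates with *Pomc* would raise that level for each gene, so this reading depends on leaving *Pomc* out. The rates of the 11 genes were also subtracted, an alternative chosen after the data were seen and run without *Pomc* only. The log2 fold changes were then -3.50 for *Runx1* (edgeR adjusted p = 0.00245), -2.11 for *Eomes* (edgeR adjusted p = 0.00282) and -2.81 for *Zeb2* (edgeR adjusted p = 0.0788).

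**Figure D5:**
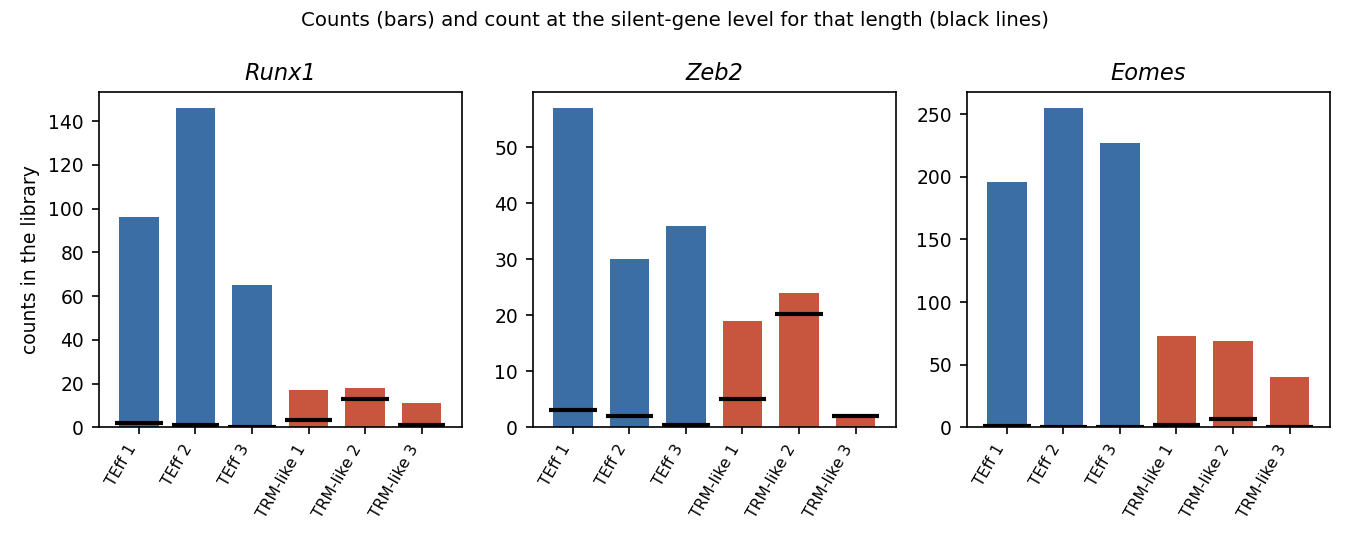
Counts of *Runx1*, *Zeb2* and *Eomes* in each library (bars, linear axes from 0), with the count that the rate of 11 silent genes would give over the same length (black lines). For *Zeb2* in TRM-like replicates 2 and 3 the lines, at 20.2 and 1.94, come close to the bars at 24 and 2.

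*Zeb1*, the other gene of the Zeb family, was at 33.1 to 41.5 CPM in TEff and 32.3 to 45.3 in TRM-like (log2 fold change 0.09, edgeR adjusted p = 0.847). *Zeb2* made up 2.85% ± 1.01 of the per-kb RNA of the pair in TEff and 0.938% ± 0.77 in TRM-like (SD, n = 3). The log2 ratio of *Zeb2* to *Zeb1* was -5.15 ± 0.56 in TEff and -7.45 ± 2.16 in TRM-like (SD, n = 3, exact permutation p = 0.1, two-sided, the smallest possible, 0.167 adjusted over 5 ratios). The difference of -2.29 rested in large part on TRM-like replicate 3, being -1.06 without it, and was -3.06 without TRM-like replicate 2.

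Of 4 genes linked to Zeb factors, 1 rose, where 1.52% of all genes tested did. *Cdh1*, which encodes E-cadherin and is a known target of Zeb repression, rose by 6.83 (SE 0.20, edgeR adjusted p = 1.75e-06), from 0.457 to 0.709 CPM in TEff to 63.8 to 72.9 in TRM-like. *Il7r*, the gene of the IL-7 receptor chain, was at 138, 250 and 140 CPM in TEff and 83.6, 86.8 and 26.2 in TRM-like, apart between the groups but not called by edgeR (adjusted p = 0.138), and it was called as lower by DESeq2.

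*Prdm1* (ENSMUSG00000038151, chromosome 10, 44313171 to 44404497, minus strand) varied least within groups. It was at 17.5, 17.3 and 16.8 CPM in TEff replicates 1 to 3, and at 12.6, 12.5 and 12.2 in TRM-like replicates 1 to 3. The lowest TEff library was above the highest TRM-like library, and TRM-like replicate 3 was level with the other two. The log2 fold change of -0.47 (SE 0.13, 95% interval -0.76 to -0.17, unadjusted p = 0.00555 from edgeR) was under the fold threshold and not called (edgeR adjusted p = 0.109). Over 16 alternatives it was -0.49 to -0.43 and never called, and the adjusted p was lowest without TRM-like replicate 3 (0.0172 by edgeR).

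*Zfp683* (ENSMUSG00000049410, chromosome 4, 133781149 to 133786327, plus strand) was at 28.8, 34.5 and 28.0 CPM in TEff and at 27.4, 23.1 and 18.3 in TRM-like replicates 1 to 3. The groups met without overlap, 28.0 against 27.4 CPM. Its log2 fold change was -0.41 (SE 0.17, 95% interval -0.80 to -0.02, edgeR adjusted p = 0.314), and it was -0.28 without TRM-like replicate 3 and -0.56 without TRM-like replicate 1. Per kb, *Zfp683* RNA exceeded that of *Prdm1* in every library, and *Prdm1* made up 13.5% ± 1.22 of the sum of the pair in TEff and 13.2% ± 2.16 in TRM-like (SD, n = 3). The log2 ratio of *Prdm1* to *Zfp683* differed by -0.042 between groups (exact permutation p = 0.9, two-sided), so a difference in their balance was not detectable with 3 samples per group.

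Among 6 genes linked to repression by Blimp-1 or Hobit, 1 fell and 0 rose, where 1.48% and 1.52% of all genes tested did. DESeq2 called 2 as lower (*S1pr1* and *Klf2*) and 0 as higher, and limma-voom 1 as lower and 0 as higher. At an unadjusted p under 0.05, edgeR gave 2 as lower and 1 (*Ccr7*) as higher. *S1pr1*, the sphingosine-1-phosphate receptor gene of tissue egress, fell by 2.33 (SE 0.34, edgeR adjusted p = 0.00686), from 131 to 195 CPM in TEff to 19.1, 24.7 and 49.2 in TRM-like. *Klf2*, which encodes an activator of *S1pr1*, was at 27.7, 52.6 and 30.3 CPM in TEff and 12.9, 16.3 and 22.8 in TRM-like, apart between the groups, and was called as lower by DESeq2 but not by edgeR (adjusted p = 0.0891). *Ccr7*, a lymph node homing receptor gene, was at 26.9 to 28.1 CPM in TEff and 29.3, 36.6 and 59.7 in TRM-like and was not called (edgeR adjusted p = 0.279). *Tcf7*, the gene of the memory factor TCF-1, overlapped at 82.4 to 151 CPM in TEff and 55.1 to 118 in TRM-like, and *Bcl6*, which encodes an antagonist of Blimp-1, was at 4.26 to 8.10 CPM in TEff and 0.369 to 5.19 in TRM-like, with TRM-like replicate 3 the lowest.

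*Id2* (ENSMUSG00000020644, chromosome 12, 25143798 to 25147282, minus strand) was at 94.8, 99.7 and 104 CPM in TEff and at 109, 110 and 71.6 in TRM-like replicates 1 to 3. TRM-like replicates 1 and 2 lay above all TEff libraries and replicate 3 below them. The log2 fold change was -0.037 (SE 0.18, 95% interval -0.44 to 0.36, edgeR adjusted p = 0.953), and its sign turned without TRM-like replicate 3 (0.13, edgeR adjusted p = 0.418) and without TEff replicate 3 (0.011, edgeR adjusted p = 0.993). *Id3*, which encodes the Id protein of memory cells, was at 35.8 to 39.8 CPM in TEff and 36.7 to 50.4 in TRM-like (edgeR adjusted p = 0.615). The log2 ratio of *Id2* to *Id3* was 0.46 ± 0.14 in TEff and 0.22 ± 0.19 in TRM-like (SD, n = 3, exact permutation p = 0.2, two-sided, where the smallest possible is 0.1).

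The list of E proteins and other Id genes had 0 of 5 tested genes called by edgeR, DESeq2 or limma-voom, and 0 at an unadjusted p under 0.05 in edgeR. Its E protein genes were *Tcf3* at 91.3 to 96.2 CPM in TEff and 75.9 to 83.9 in TRM-like (edgeR adjusted p = 0.396), *Tcf12* at 110 to 139 and 110 to 120, and *Tcf4* at 5.81 to 7.49 and 6.55 to 8.68. *Id1* had 1 to 6 counts per library. Of 8 tested genes of the same families, 0 were called by edgeR, DESeq2 or limma-voom, and 1 (*Tbr1*, with 0 to 6 counts per library) had an unadjusted p under 0.05 in edgeR. Over all 44 linked genes, 42 were tested and 9 were called, 4 higher and 5 lower (21.4% of those tested), against 3.01% over all genes. The lists were drawn up with results of these samples known, so that their counts are a description.

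*Bhlhe40* (ENSMUSG00000030103, chromosome 6, 108636626 to 108644502, plus strand) was at 64.2, 63.2 and 83.9 CPM in TEff and at 71.0, 73.6 and 104 in TRM-like replicates 1 to 3. The groups overlapped, and TRM-like replicate 3 was the highest of the 6, as it was the lowest for *Tbx21* and *Id2*. Its log2 fold change was 0.23 (SE 0.19, 95% interval -0.19 to 0.65, edgeR adjusted p = 0.634), and it was 0.03 without TRM-like replicate 3 and 0.39 without TEff replicate 3.

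Levels of different genes were compared per kb of the deposited gene length. A later annotation gave more exon bases for some, 6352 against 3168 for *Bhlhe40*, 22741 against 11443 for *Zeb2* and 12668 against 7452 for *Runx1*. For *Tbx21* the lengths were nearly equal, at 2489 and 2488, so the order below holds for the deposited lengths only. In TEff the order of mean CPM per kb was *Id2* (40.8), *Tbx21* (22.4), *Bhlhe40* (22.2), *Zfp683* (20.7), *Runx3* (15.9), *Prdm1* (3.20), *Eomes* (3.11), *Runx1* (0.688) and *Zeb2* (0.178). *Id2* ranked 1, *Runx1* 8 and *Zeb2* 9 in each TEff library, while *Tbx21*, *Bhlhe40*, *Zfp683* and *Runx3* shared ranks 2 to 5, and *Prdm1* and *Eomes* ranks 6 and 7, in changing order. In TRM-like the means were 39.8 for *Id2*, 33.6 for *Runx3*, 26.1 for *Bhlhe40*, 18.8 for *Tbx21*, 15.6 for *Zfp683*, 2.32 for *Prdm1*, 0.726 for *Eomes*, 0.091 for *Runx1* and 0.0574 for *Zeb2*. From *Tbx21* at rank 4 down to *Zeb2* at rank 9 this order was the same in all 3 TRM-like libraries. *Id2*, *Runx3* and *Bhlhe40* held ranks 1 to 3, and *Bhlhe40* ranked 1 in TRM-like replicate 3 only.

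Over the 6 libraries, the log2 CPM of *Runx1* followed that of *Eomes* (Pearson's r = 0.971) and of *Prdm1* (0.980), and *Tbx21* ran against *Bhlhe40* (-0.938). These are 6 points in 2 groups that share libraries, and are given as a description. A search of 14779 genes that had 10 or more counts in each of the 6 libraries gave as most like each factor gene, by r, *Dst* (0.9995) and *Pygo2* (0.999) for *Runx1*, *Kcnj8* (0.9957) and *Dkkl1* (0.9932) for *Eomes*, and *Ptprj* (0.9963) and *Rreb1* (0.9951) for *Runx3*. For *Prdm1* they were *Nsmaf* (0.9982) and *Abcb1b* (0.9979), for *Zfp683* *Proser3* (0.9952) and *Hopxos* (0.994), and for *Tbx21* *Ip6k1* (0.9973) and *A630014C17Rik* (0.996). For *Id2* they were *Ttc33* (0.9949) and *Arap3* (0.9911), and for *Bhlhe40* *Gm7887* (0.9904) and *Zfp472* (0.9874). *Dst* was at 2.86 to 10.6 CPM, *Ptprj* at 72.2 to 110, and *Kcnj8* at 1.20 to 7.04. Each was picked as the highest of all genes searched.

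Genes on the opposite strand share exon bases with 5 of the 9, and the strand setting of the counting was not given in the sources used here. The deposited counts of those neighbours were small. *Gm33460*, which shares 430 exon bases with *Eomes*, had 3 to 9 counts per library, *Gm36287*, which shares 466 with *Id2*, had 0 to 8, *Gm26626* at *Runx1* 0 to 3, *Zeb2os* at *Zeb2* 0 to 2, and *0610040F04Rik* at *Bhlhe40* 0 to 5. *Gm33408* at *Eomes* and *Gm59395* at *Id2* were not analysed here. *Prdm1*, *Zfp683*, *Runx3* and *Tbx21* share exon bases with no other annotated gene.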

How the data were processed

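The members and gene lists were chosen with earlier results of these data known. The authors trimmed reads with Cutadapt 4.8, mapped and counted them with Rsubread on GENCODE for GRCm39. The authors deposited these raw counts, together with the length of each gene. The strand setting and the treatment of reads that map to several places were not given in the sources used here. Symbols and positions came from a later GENCODE release of GRCm39, which matched 56620 of 57126 genes.

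The filter kept genes detected with 1 count or more in 3 or more samples. Tests used edgeR 4.0.16 (glmQLFit, glmQLFTest, TMM) in R 4.3.3, with Benjamini-Hochberg adjustment over 26154 genes. CPM used TMM library sizes. An SE is the log2 fold change divided by the square root of F, and 95% intervals use the fit's degrees of freedom. Ratios were tested by exact permutation. Simulated counts for this comparison held 26154 genes, 200 of them changed 4-fold. The changed genes were drawn from those above 1 CPM on average, and no library was made to stand apart. On these counts edgeR recovered 96% with 9% false among its calls, DESeq2 1.42.0 95.5% with 17.7%, and limma-voom (limma 3.58.1) 96% with 8.57%. The recovery rates do not cover genes under that level.

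All 9 factor genes are named. A linked gene of the Zeb list is not reported here and was taken out of the list counts. Linked genes are named where called, where a ratio uses them, or, after their values were seen, to show what was not called. Genes most like a member are the 2 with the highest r. Alternatives replaced the test (DESeq2, limma-voom), the scaling (library totals, size factors of DESeq2), the filter (none, filterByExpr, 10 or more counts in all samples) and the call (adjusted p alone), added a replicate block, or dropped 1 sample at a time. TRM-like replicate 3 alone and the subtraction of the silent-gene level were added after the data were seen. Promoter windows came from RefSeq (GRCm38.p6), and all 12 were found once in GRCm39 by exact match.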

Additional observations from a re-analysis of the deposited data

How the results depend on the processing

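*Runx1* and *Eomes* were called as lower in the main analysis and in all 16 alternatives. *Runx3* was called as higher in 4 of 16 (DESeq2, no filter, the replicate block and without TRM-like replicate 3), and *Zeb2* as lower in 4 of 15 (no filter, the replicate block, without TRM-like replicate 3, and that replicate alone), having too few counts to be tested with 10 counts required in all samples. The number of the 9 called, 2, was 4 with no filter, 4 with the replicate block, and 2 to 4 with each sample left out. The number over all genes, 786, was 1256 with DESeq2, 1868 with no filter, 2034 with the replicate block, and 263 to 3579 with each sample left out, highest without TRM-like replicate 3. The number of linked genes called, 9, was 14 with no filter, 14 with the replicate block, and 7 to 14 with each sample left out, highest without TRM-like replicate 3. With the block or no filter the prior degrees of freedom were infinite. Whether the replicate numbers pair the samples could not be settled, and the labels do not say. Deviations from the group means of same-numbered samples correlated at -0.363, 0.372 and 0.438, and not every sample correlated best with its own number. With 3 samples per group these deviations depend on each other, so the correlations cannot decide it. With the block the adjusted p by edgeR was 5.02e-07 for *Runx3* and 0.000136 for *Zeb2*. The study modelled a batch effect and took it out of the transformed values it plotted, not out of the deposited counts. The sources used here do not say which samples shared a batch. Whether the replicate block matches that batch is not known, and the part of batch in these values was not tested. The log2 fold change of *Id2* was -0.14 to 0.13 with each sample left out and 0.019 with the silent-gene level subtracted, and the difference in the log2 ratio of *Prdm1* to *Zfp683* was -0.18 to 0.088 with each sample left out. The *Runx3* to *Runx1* difference was then 3.75 to 4.09 and that of *Tbx21* to *Eomes* 1.67 to 1.99, while that of *Zeb2* to *Zeb1* was -3.06 to -1.06, smallest in size without TRM-like replicate 3. The median log2 fold change of all genes was 0.02 to 0.04 over the 3 scalings. The cause of these changes was not tested.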
